A study of Rattus norvegicus with 8 samples.

Results

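The miR-26 family was examined in small RNA sequencing counts from the striatum, a forebrain region of reward and movement control. The family was taken as the rows named rno-miR-26a-5p, rno-miR-26a-3p, rno-miR-26b-5p and rno-miR-26b-3p, written without the rat prefix below, and all 4 were present among the 752 mature miRNAs counted. A 5p or 3p name marks the side of the hairpin precursor from which the mature strand is cut. All rats were wild-type male Sprague-Dawley animals that had been trained to press a lever for food, fitted with a jugular catheter and then allowed to self-administer an infusion in daily sessions. In the saline group (4 rats) the infusion was saline, and in the methamphetamine (METH) group (4 rats) it was METH dissolved in saline. Per the methods of the study, rats with stable lever pressing near the end of self-administration were chosen from larger starting groups. More rats had started on METH than on saline. Age is not given in the sources used here. Each rat gave 1 library, and rats carry the number of their sample title, 1 to 4 in each group. The question was how the members are proportioned in this tissue and whether they differ between METH and saline.

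The miR-26 genes lie inside genes of the Ctdsp group, which encode small phosphatases that act on the C-terminal domain of RNA polymerase II and work with the repressor REST to keep neuronal genes silent outside neurons. A miRNA hairpin is cut into a duplex, of which usually 1 strand is loaded into Argonaute and kept as the guide, while the other is degraded. The guide finds mRNAs through its seed, the bases 2 to 8. The miR-26 guide is broadly expressed, is abundant in brain, and is known to act, during neuron formation, on the Ctdsp2 mRNA.

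In the RefSeq table of the rat assembly GRCr8, the hairpin Mir26a occupies chr8:127633048-127633137 on the plus strand, within the span of Ctdspl. Mir26b occupies chr9:83425709-83425793 on the plus strand, within the span of Ctdsp1. Both hosts are also on the plus strand, and each held 1 miRNA gene. The reads had been aligned to rn6, so these positions are given for orientation only, and the table gives gene spans without exons. The spans of Ctdsp2 and Ctdspl2 held 0 miRNA genes. In human and mouse, a further miR-26a locus in Ctdsp2 yields the same 5p strand with another 3p strand. The count table gave 1 miR-26a 3p arm, so the arm ratios below set all counts of miR-26a-5p against that arm.

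The mature sequences from RefSeq (GRCr8) are shown because the paralogs share a guide but not a 3p arm. They run 5′ to 3′, with the seed in capitals.
miR-26a-5p: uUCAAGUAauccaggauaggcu
miR-26b-5p: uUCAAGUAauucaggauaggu
miR-26a-3p: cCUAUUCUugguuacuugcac
miR-26b-3p: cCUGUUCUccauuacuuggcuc

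The 5p arms were identical over their first 10 bases and had 1 common seed, UCAAGUA, which among 693 mature names in the RefSeq table was held by these 2 only. Counted from the 5′ end, with the miR-26a base first, they differed by C11U and C21U over the 21 positions compared, and miR-26a-5p had 1 more base at its end. A read that ends before position 21 therefore separates the paralogs by 1 base. The 3p arms differed at 7 of 21 positions, including A4G inside the seed, and neither 3p seed was shared with any other name in the table.

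The hairpins are shown with the mature arms in capitals, since the results turn on how unevenly these arms were counted.
Mir26a: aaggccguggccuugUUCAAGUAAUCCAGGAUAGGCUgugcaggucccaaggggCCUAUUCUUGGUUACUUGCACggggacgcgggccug
Mir26b: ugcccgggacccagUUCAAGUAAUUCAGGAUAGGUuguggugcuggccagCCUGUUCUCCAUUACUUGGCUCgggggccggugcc

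The folding free energy predicted by RNAfold was -47.4 kcal/mol for Mir26a and -43.4 kcal/mol for Mir26b. In the predicted folds, 20 of 22 bases of miR-26a-5p and 18 of 21 bases of miR-26b-5p were paired, against 19 bases in each 3p arm. Both 5p arms start with U and both 3p arms with C. Over the precursors with both arms tested and a sequence in the table, U was the first base of 50.3% of 177 major arms and of 17.2% of 186 minor arms, while C was the first base of 12.4% and 32.8%, where the major arm is the one with more counts. U was thus commoner at the start of major arms and C at the start of minor arms, as in this family.

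Library totals ranged from 12929302 to 27632443 counts, and METH rat 1 had the smallest. Levels are given in CPM, counts brought to equal library depth with TMM factors, a scaling that assumes that most miRNAs do not differ between libraries. The library of METH rat 4 stood apart from the rest. Its TMM factor was 0.766, against 0.959 to 1.15 in the others, which raises its CPM relative to its shares of counts. The share of counts held by miR-124-3p, the most abundant miRNA of neurons, was 7.49% in this rat against 14.7% to 33.4% in the others. The summed level of all 5 neuron markers, at 332512 CPM, was inside the range of the other rats, 278804 to 483539 CPM. Of the 4 besides miR-124-3p, miR-9a-5p was highest in METH rat 4 (204524 CPM against 82989 to 115872 CPM), miR-138-5p was lowest, and miR-128-3p and miR-137-3p were within the range of the others. The summed level of the 2 tested erythrocyte markers was 2816 CPM in METH rat 4 against 341 to 648 CPM in the other rats, and that of both choroid plexus markers was 6953 CPM against 2686 to 3474 CPM. The 3 vessel markers summed to 13738 CPM against 10179 to 11721 CPM, and the 3 oligodendrocyte markers to 4492 CPM against 2334 to 4052 CPM, whereas the 4 leukocyte markers, at 688 CPM against 1076 to 2094 CPM, were lowest there. The marker sums are on the CPM scale and were not compared as shares of counts. Values without this rat are given beside the results of the family that it moves.

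The family made up 4.36 ± 0.78% of all miRNA counts in the saline group (SD, n = 4) and 4.80 ± 0.079% in the METH group (SD, n = 4). In saline rats 1 to 4 the share was 5.36%, 4.59%, 3.66% and 3.84%. In METH rats 1 to 4 it was 4.92%, 4.78%, 4.77% and 4.74%. The METH shares lay within the saline range and close to one another. In every rat, miR-26a-5p supplied between 96.9% and 98.2% of the family counts, miR-26b-5p between 1.83% and 3.09%, and the 3p arms together at most 0.0232%.

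The members fell into 4 separate levels whose ranges over the 8 rats did not meet. The mature strands are 21 or 22 bases long, so no length correction was made. Whether library preparation captured the different sequences equally was not tested, so levels of different miRNAs and arms compare counts here. The order was miR-26a-5p at 35946 to 59976 CPM, miR-26b-5p at 772 to 1913 CPM, miR-26b-3p at 3.22 to 9.01 CPM and miR-26a-3p at 1.09 to 2.64 CPM. Among the 507 miRNAs that passed the low-count filter, all 4 members included, these ranked 5, 74, 382 and 454 by mean CPM.

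**Figure D1:**
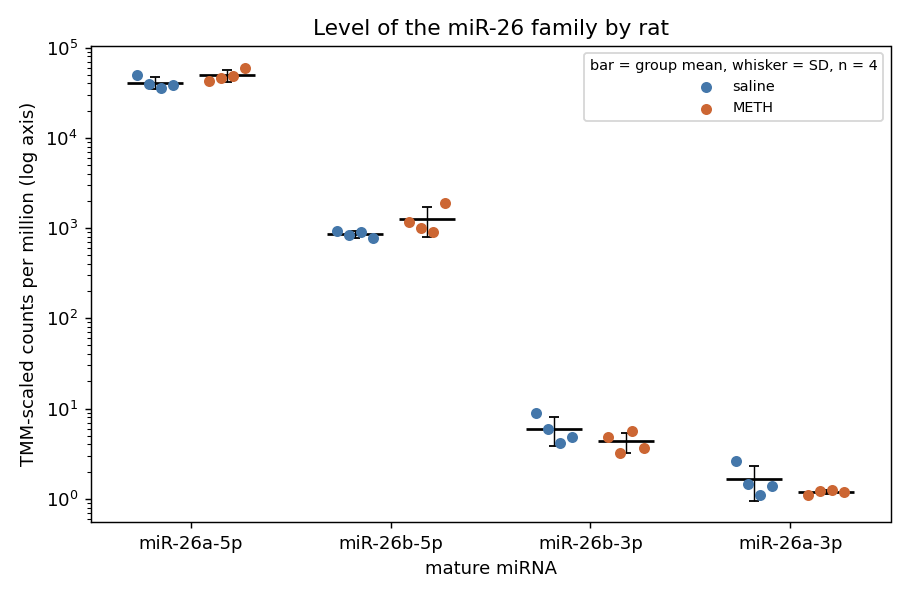
Level of each miR-26 arm in CPM after TMM scaling, on a log axis, for 4 saline rats and 4 METH rats (points), with the group mean (bar) and SD (whisker). The guide arms lie far above the 3p arms, miR-26a leads among the 5p arms and miR-26b among the 3p arms, and the saline and METH points of each arm overlap.

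The abundant guide miR-26a-5p was counted 1101448, 908372, 985715 and 982608 times in saline rats 1 to 4. In METH rats 1 to 4 its counts were 618812, 917805, 1210895 and 998930. After scaling, these gave 49376, 38977, 35946 and 38408 CPM in the saline rats. The METH rats were at 42500, 46189, 48854 and 59976 CPM. On this scale METH rat 4 alone exceeded saline rat 1, while the other 3 METH rats lay between saline rat 1 and the remaining saline rats. As a share of all counts, miR-26a-5p was 4.59% in METH rat 4, the lowest METH value, and 5.26% in saline rat 1. The order of these rats thus depends on the scaling. The mean was 40677 ± 5947 CPM (SD, n = 4) in saline and 49380 ± 7529 CPM (SD, n = 4) in METH. METH exceeded saline by 0.28 ± 0.22 (SE) on the log2 scale (edgeR quasi-likelihood test, adjusted p = 0.818). The difference was 0.17 without METH rat 4, 0.43 without saline rat 1, and 0.13 with library totals only in place of TMM. In whole tissue, a change in the number of cells of a type and a change in RNA per cell cannot be told apart.

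The level of miR-26a-5p was among the steadier ones. Its within-group SD was 0.21 on the log2 CPM scale, the rank 472 of 507 counted from the most variable, against a median of 0.47 over all miRNAs tested and 0.45 over the 50 most abundant. Next above it in mean CPM were let-7c-5p at 48545 ± 19410 CPM (SD, n = 8) and miR-181a-5p at 46773 ± 21245 CPM (SD, n = 8), and next below were let-7a-5p at 35951 ± 15931 CPM (SD, n = 8) and miR-127-3p at 30822 ± 15380 CPM (SD, n = 8). The differences between miR-26a-5p, at 45028 ± 7816 CPM (SD, n = 8), and these neighbours were within their spread.

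Its paralog miR-26b-5p, which carries the same seed, was at 939, 828, 910 and 772 CPM in saline rats 1 to 4, from counts of 20940, 19289, 24950 and 19738. In METH rats 1 to 4 it was at 1180, 1009, 913 and 1913 CPM, from counts of 17176, 20048, 22631 and 31864. METH rats 1, 2 and 4 were above every saline rat, and METH rat 3 lay between saline rats 3 and 1. The mean was 862 ± 76.5 CPM (SD, n = 4) in saline and 1254 ± 453 CPM (SD, n = 4) in METH, a log2 fold change of 0.54 ± 0.26 (SE). This was the smallest p of the family, at 0.0625 before and 0.818 after adjustment over all 507 miRNAs in the edgeR test. Without METH rat 4 the log2 fold change was 0.27, and with library totals only it was 0.38. The erythrocyte, choroid plexus, vessel and oligodendrocyte marker sums were also highest in that rat on the CPM scale, which its low TMM factor raises. The part of those cells in the miR-26b-5p value was not tested. In mean CPM, miR-26b-5p at 1058 ± 367 CPM (SD, n = 8) stood between miR-322-5p at 1090 ± 205 CPM (SD, n = 8) and miR-323-3p at 1010 ± 176 CPM (SD, n = 8), within the spread of both. The next in either direction were miR-23a-3p at 1092 CPM and miR-485-5p at 976 CPM.

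The 3p arms pointed the other way. Counts of miR-26b-3p were 201, 137, 114 and 125 in saline rats 1 to 4, and 70, 64, 138 and 61 in METH rats 1 to 4. On the CPM scale, saline rats 1 to 4 were at 9.01, 5.88, 4.16 and 4.89, and METH rats 1 to 4 at 4.81, 3.22, 5.57 and 3.66. METH rats 2 and 4 were below every saline rat, and the other METH rats were within the saline range. The METH minus saline difference was -0.47 ± 0.33 (SE) on the log2 scale (edgeR adjusted p = 0.818), and -0.17 without saline rat 1.

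The rarest member, miR-26a-3p, had counts of 59, 34, 30 and 35 in saline rats 1 to 4 and of 16, 24, 31 and 20 in METH rats 1 to 4. At these counts, counting error alone gave a standard error between 0.19 and 0.36 per rat on the log2 scale. The exact 95% Poisson interval ran from 44.9 to 76.1 for the highest of them, covering counting error only. Its level was 2.64, 1.46, 1.09 and 1.37 CPM in saline rats 1 to 4, and 1.10, 1.21, 1.25 and 1.20 CPM in METH rats 1 to 4. The METH rats were tightly grouped inside the saline range, and saline rat 1 was highest. The METH minus saline difference was -0.46 ± 0.33 (SE) on the log2 scale (edgeR adjusted p = 0.818). Without saline rat 1 it was -0.09.

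Thus 0 of the 4 members passed the threshold of 0.05 after adjustment (edgeR quasi-likelihood test), as did 0% of the 507 miRNAs tested. Before adjustment, 28 of the 507 miRNAs, or 5.52%, were under 0.05, and 0 of the 4 members. DESeq2 called 8 miRNAs, the edgeR exact test 6 and the likelihood ratio test 7 at the adjusted threshold, with 0 members of the family among them. The METH and saline CPM ranges overlapped for all 4 members, whereas they did not overlap for 16 of the 507 miRNAs, or 3.16%. The 5p arms had positive and the 3p arms negative fold changes in every setting tried, against a median log2 fold change of -0.02 over all miRNAs tested and 0.24 over the 50 most abundant.

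**Figure D2:**
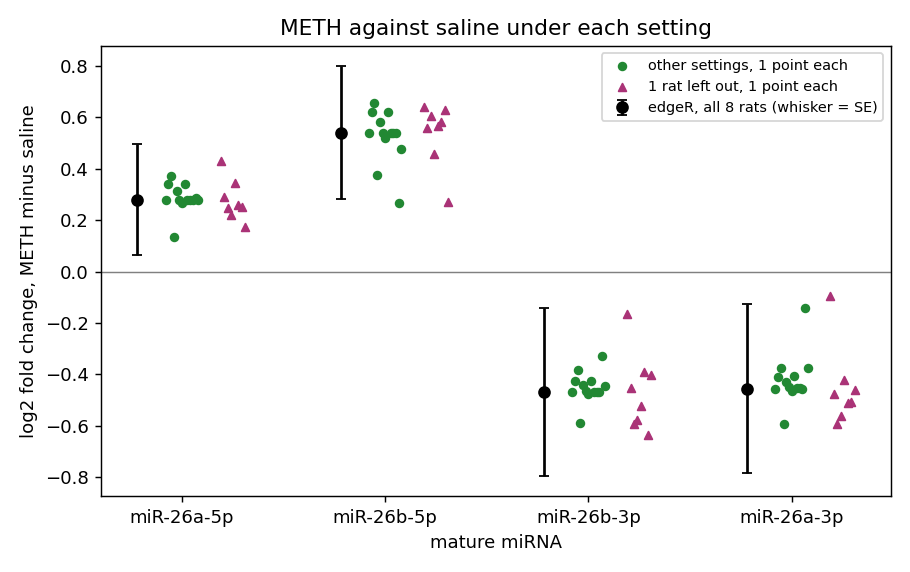
Log2 fold change of each arm, METH minus saline, in the edgeR fit with all 8 rats (black, whisker = SE), under 13 other settings (circles) and with 1 rat left out in turn (triangles). The 5p arms stay above 0 and the 3p arms below 0 in all of them.

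Ratios of counts within a library do not depend on library scaling, so the proportions of the family were compared next. The paralog ratio of the guides, miR-26a-5p to miR-26b-5p, was 52.6, 47.1, 39.5 and 49.8 in saline rats 1 to 4. It was 36.0, 45.8, 53.5 and 31.3 in METH rats 1 to 4. On the log2 scale the means were 5.55 ± 0.18 (SD, n = 4) in saline and 5.35 ± 0.35 (SD, n = 4) in METH, and the groups overlapped. The difference was -0.20 ± 0.19 (SE; two-sided exact permutation test, p = 0.314), and it was -0.078 without METH rat 4 and -0.33 without METH rat 3.

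Between the 3p arms the order of the paralogs was turned around. The log2 ratio of miR-26a-3p to miR-26b-3p was -1.76, -1.99, -1.91 and -1.82 in saline rats 1 to 4, and -2.10, -1.40, -2.14 and -1.58 in METH rats 1 to 4. The 3p arm of miR-26b was therefore the more abundant in 8 of 8 rats, by 3.66-fold in saline and 3.49-fold in METH on the geometric mean, whereas the 5p arm of miR-26a was the more abundant in 8 of 8 rats, by 47.0-fold and 40.8-fold. The group difference of the 3p ratio was 0.07 ± 0.19 (SE; two-sided exact permutation test, p = 0.714). METH rats lay on both sides of the saline range, with METH rats 2 and 4 above it and METH rats 1 and 3 below it. The difference changed sign without METH rat 2 (-0.068) or METH rat 4 (-0.0048).

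Counts of the arms were far more uneven for miR-26a than for miR-26b, while strand choice itself was not measured. For each count of miR-26a-3p there were 18669, 26717, 32857 and 28075 counts of miR-26a-5p in saline rats 1 to 4. In METH rats 1 to 4 there were 38676, 38242, 39061 and 49947. All 4 METH rats were above every saline rat. The log2 ratio was 14.65 ± 0.34 (SD, n = 4) in saline and 15.30 ± 0.18 (SD, n = 4) in METH, a difference of 0.65 ± 0.19 (SE), or 1.57-fold. The two-sided exact permutation test gave p = 0.0286, the smallest that 4 rats against 4 allow, and 0.114 after Benjamini-Hochberg adjustment over the 4 ratios compared, so it did not pass. These ratios are linked, since any 3 of them fix the last. Without METH rat 4 the difference was 0.56 (p = 0.0571 in the same permutation test), and without saline rat 1 it was 0.49 (p = 0.0286).

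For miR-26b, the 5p to 3p ratio was 104, 141, 219 and 158 in saline rats 1 to 4 and 245, 313, 164 and 522 in METH rats 1 to 4. METH rats 1, 2 and 4 were above every saline rat, and METH rat 3 was between saline rats 4 and 3. The log2 ratio was 7.22 ± 0.44 (SD, n = 4) in saline and 8.14 ± 0.70 (SD, n = 4) in METH, a difference of 0.92 ± 0.41 (SE), or 1.89-fold. The two-sided exact permutation test gave p = 0.0571, and 0.114 after adjustment over the 4 ratios. Without METH rat 4 the difference was 0.63.

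Stated as shares, the 3p arm took 0.00536% of miR-26a counts in saline rat 1 (95% Clopper-Pearson interval 0.00408% to 0.00691%) and 0.00200% in METH rat 4 (0.00122% to 0.00309%), the highest and lowest of the 8 rats. For miR-26b the same rats were again the extremes, at 0.951% (0.824% to 1.09%) and 0.191% (0.146% to 0.245%). These intervals cover counting error only. For miR-26a, the interval of saline rat 1 lay above those of METH rats 2, 3 and 4, whereas those of the other saline rats overlapped the interval of every METH rat.

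**Figure D3:**
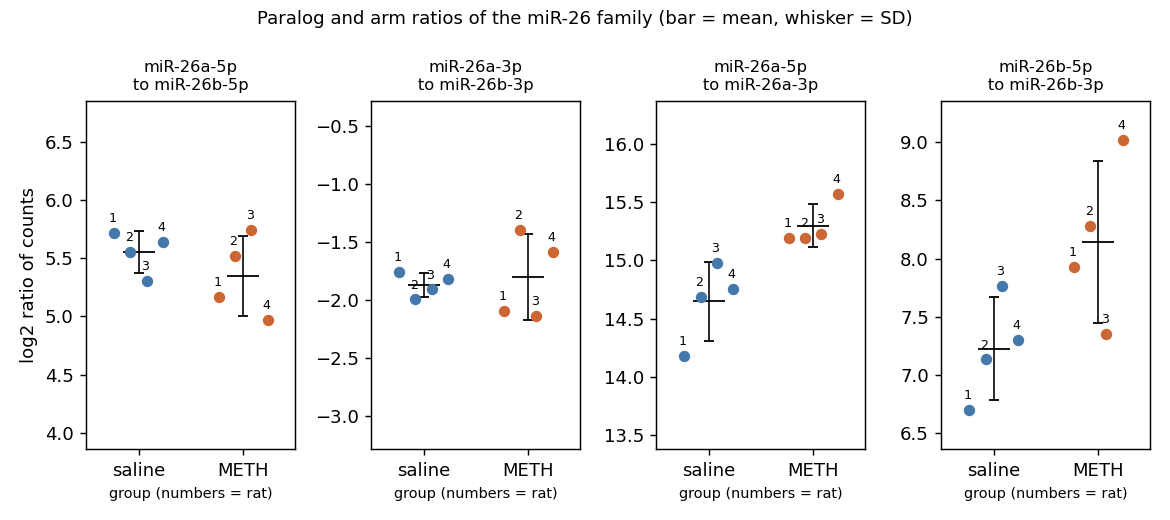
Log2 ratio of counts within each library for the paralogs (5p arms, 3p arms) and for the arms of miR-26a and of miR-26b, by group, with the rat number at each point, the mean (bar) and SD (whisker). All panels span the same height in log2 units. The METH and saline points separate for the miR-26a arms, nearly do so for the miR-26b arms, and overlap for the paralog ratios of the guides.

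The arm ratios were set beside those of all 205 precursors whose arms both passed the filter. In 174 of these both arms carry 1 name, and in the other 31 an arm named for 1 locus (let-7c-1-3p) was set against the arm that several loci share (let-7c-5p), so that the ratio of such a precursor includes counts from other loci. With a mean log2 ratio of 14.97, miR-26a had the rank 2 of 205, behind let-7c-1 at 15.77 and ahead of let-7a-2 at 14.16, both with a shared 5p arm, and the rank 1 of the 174. For miR-26b the value was 7.68, the rank 46 of 205, and the median over the precursors was 4.25. The METH and saline ranges of the major-to-minor ratio did not overlap for 5 of the 205 precursors, or 2.44%, each with higher values in METH, and miR-26a was 1 of these. The other 4 were let-7c-1, miR-126a, miR-151 and miR-421, with differences of 1.37, 0.70, 0.62 and 0.96, named after their values were seen. Without METH rat 4 these differences were 0.71, 0.32, 0.70 and 0.49, and that of miR-26a was 0.56. A difference towards METH at least as large as that of miR-26a was seen in 10.7% of precursors, and at least as large as that of miR-26b in 5.85%, these precursors included. Counted by size in either direction, the shares were 17.1% and 7.80%.

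A higher arm ratio was also seen more widely in METH rat 4. The median log2 ratio over the 203 precursors outside the family was 4.81 in this library, and 4.20 to 4.55 in the other 7. Its group difference was 0.13 (two-sided exact permutation test, p = 0.429). After this library median was subtracted, a step chosen after seeing the data, the difference was 0.51 for miR-26a (permutation p = 0.114) and 0.79 for miR-26b (permutation p = 0.0857). The adjusted miR-26a values of METH rats 1 to 4 were 10.78, 10.68, 10.93 and 10.76 against 9.73, 10.13, 10.78 and 10.44 in the saline rats, so METH rats 1, 2 and 4 then lay inside the saline range. With the median taken only over precursors whose arms share a name, the miR-26a difference was again 0.51 (permutation p = 0.0571).

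**Figure D4:**
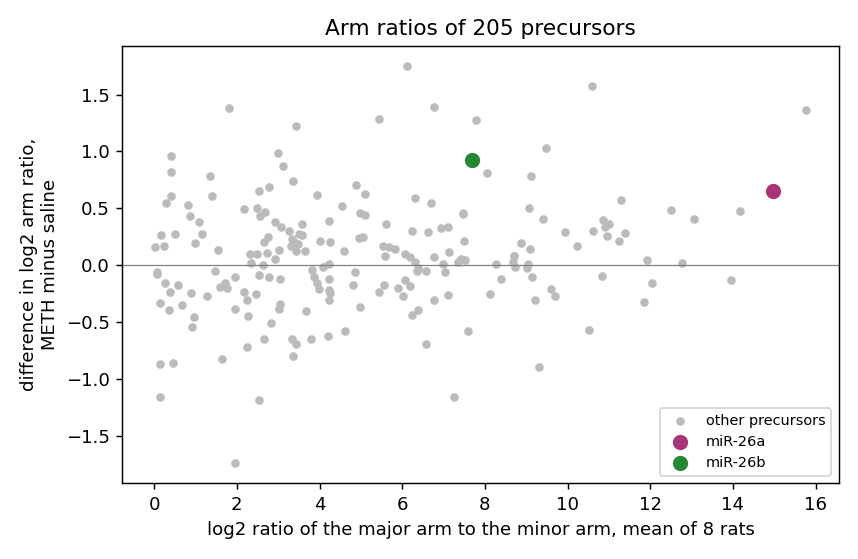
Arm ratios of 205 precursors, each point 1 precursor: log2 ratio of the major to the minor arm averaged over 8 rats (horizontal axis) and its METH minus saline difference (vertical axis). miR-26a lies at 14.97 with a difference of 0.65, with only let-7c-1 farther right, and miR-26b is at 7.68 with 0.92, while the other precursors spread on both sides of 0.

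How the members varied together over the 8 rats is given as a description, without a test, since these libraries come from 2 groups and share the TMM scaling. For miR-26a-5p and miR-26b-5p, Pearson's r of log2 CPM was 0.76 and Spearman's rho 0.71. For miR-26a-3p and miR-26b-3p they were 0.84 and 0.76. Within hairpins, r was 0.20 (rho 0.24) for the arms of miR-26a and -0.42 (rho -0.48) for those of miR-26b. With METH rat 4 left out, r was 0.37 for the 5p arms and 0.84 for the 3p arms. It was then 0.47 for the arms of miR-26a and -0.20 for those of miR-26b. Without the 2 rats farthest from the median of the first member, r was 0.42 for the 5p arms and 0.22 for the 3p arms, so both values rested in part on these rats. When each rat was set against its own group mean, r was 0.61 for the 5p arms, 0.78 for the 3p arms, 0.73 for the arms of miR-26a and -0.14 for those of miR-26b. Without METH rat 4, also chosen after seeing the data, these deviations gave r = -0.0041, 0.80, 0.97 and 0.17 over 7 rats, so the value for the 5p arms rested on that rat.

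The miRNAs whose deviations from the group means were most like those of the guides were ranked among 345 with a mean of at least 10 CPM. For miR-26a-5p they were miR-543-5p (r = 0.98), miR-7a-1-3p (0.95), miR-27b-3p (0.93), miR-323-5p (0.92) and miR-99a-5p (0.91), over 8 libraries. For miR-26b-5p they were miR-541-5p (r = 0.98), let-7a-5p (0.97), let-7g-5p (0.96), let-7f-5p (0.96) and miR-369-5p (0.96). The 2 guides of 1 seed had no miRNA in common among these. Without METH rat 4, the r of the named miRNAs ran from 0.87 to 0.97 for miR-26a-5p and from 0.82 to 0.90 for miR-26b-5p, and 3 of the 5 stayed among the first 5 for each guide.

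As related groups, miRNAs linked to REST and miRNAs inside protein-coding genes were counted in the same fit. Of the 10 REST-linked miRNAs tested, 0 rose and 0 fell at the adjusted threshold, with 6 positive fold changes and a median log2 fold change of 0.06. Their levels ran from miR-124-3p, the most abundant miRNA here, to miR-124-5p. Of the 27 miRNAs tested from the list of intronic ones, 26 lay within the span of a protein-coding gene in GRCr8 and miR-151-3p did not. Of the 27, 0 rose and 0 fell, with 14 positive fold changes and a median of 0.04. Each of these counts stands against 0% called over all 507 miRNAs, and the values nearest to that of miR-26b-5p among the intronic ones were 0.50 for miR-27b-3p, hosted by Aopep, and 0.64 for miR-149-5p, hosted by Gpc1. No member of either list had an unadjusted p under 0.05 in edgeR.

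Summed levels of cell type marker miRNAs were compared by group. The lists cover cell types and not brain regions, so they do not check the striatum label. The 5 neuron markers summed to 278804 to 483539 CPM in saline and 314753 to 467665 CPM in METH. The 3 oligodendrocyte markers summed to 2897 to 3191 CPM in saline and 2334 to 4492 CPM in METH, and the 3 vessel markers to 10179 to 10808 CPM and 10725 to 13738 CPM. The 4 leukocyte markers summed to 1076 to 2094 CPM in saline and 688 to 2063 CPM in METH. Of the 4 erythrocyte markers 2 were tested, summing to 402 to 643 CPM in saline and 341 to 2816 CPM in METH, and both choroid plexus markers summed to 2686 to 3474 CPM and 2768 to 6953 CPM. The median log2 fold change was -0.02 for the neuron, -0.17 for the oligodendrocyte, 0.12 for the vessel, -0.06 for the leukocyte, 0.65 for the erythrocyte and 0.82 for the choroid plexus markers, against -0.02 over all miRNAs tested. None of these markers passed the adjusted threshold. Their part in the values of the family was not tested.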

How the data were processed

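Per the study's methods and processing notes, the authors gel-purified small RNA, prepared libraries with unique molecular identifiers, trimmed reads with cutadapt 1.18, aligned them to rn6 with STAR 2.7.0e and counted them with featureCounts of Subread 1.6.4. The deposited values are raw counts per mature miRNA, without normalization. The miRNA annotation, the treatment of reads with several alignments and any merging of molecular identifiers are not given in the sources used here. Reads could therefore be shared between paralogs, and PCR copies could be counted more than once.

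Low counts were removed with filterByExpr (minimum count 10), which kept 507 of 752 miRNAs. METH was compared with saline in edgeR 4.0.16 (R 4.3.3) by the quasi-likelihood test with TMM (trimmed mean of M-values) scaling and no covariate. Benjamini-Hochberg adjustment covered the 507 miRNAs. Standard errors of fold changes were derived from the F statistic. Ratios were taken as log2 after adding 0.5 to each count and compared by exact permutation over 70 assignments. The standard error of a ratio difference combines both group variances. Log2 CPM used a prior count of 2. Alternatives were other scalings, filters and tests (DESeq2 1.42.0, limma 3.58.1 and others), the rat number as a block, and each rat left out.

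Of the table names, 685 matched a RefSeq mature sequence (GRCr8), and folds were computed with RNAfold 2.7.2. All 4 members were named, with the abundance neighbours on either side of each guide and the 5 miRNAs most like it. Precursors with an arm shared by several loci were added to the arm comparison after its ratios had been seen. The members, lists and rules were chosen with earlier results of these data known.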

Additional observations from a re-analysis of the deposited data

Results flagged for a closer look

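The levels, ratios and share of the family gave 18 sets of 4 rats, in which a rat standing apart was looked for, and there was 1. Chance gives about 1 in 20 sets. In METH rat 4, the log2 ratio of miR-26a-5p to miR-26a-3p was 15.57, against 15.19 to 15.23 in the other METH rats, a gap of 0.90 of the group's range. This is the library in which the median arm ratio of the other precursors was also highest. The part of that library in the value was not tested.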

How the results depend on the processing

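Each member kept its direction and stayed outside the adjusted threshold in all 13 other settings and all 8 fits that each left out 1 rat. Over the former, log2 fold changes ranged from 0.13 to 0.37 for miR-26a-5p, 0.27 to 0.66 for miR-26b-5p, -0.59 to -0.14 for miR-26a-3p and -0.59 to -0.33 for miR-26b-3p. Over the latter they ranged from 0.17 to 0.43, 0.27 to 0.64, -0.59 to -0.09 and -0.64 to -0.17. The lowest values of the 5p arms came without METH rat 4 and those of the 3p arms nearest 0 without saline rat 1. Calls over all miRNAs numbered 8 with DESeq2, 6 with the exact test and 7 with the likelihood ratio test, against 0 in the quasi-likelihood test, and 0 to 5 with a rat left out, the most without METH rat 1. The 3p paralog ratio difference of 0.07 reversed to -0.0029 with pooled group counts, and ranged from -0.068 to 0.18 with a rat left out, reversing without METH rat 2 or METH rat 4. The miR-26a arm ratio difference ranged from 0.49 to 0.76 with a rat left out, with a permutation p of 0.0286 or 0.0571. It was 0.51 after subtracting the library median (permutation p = 0.114), and also 0.51 with the median over precursors whose arms share a name (permutation p = 0.0571). The family share was 5.98% with miR-124-3p left out of the total, against 4.58% over all rats. The cause was not tested for these, except that a smaller total raises a share.

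With the rat number as a replicate block, log2 fold changes were 0.28, 0.48, -0.38 and -0.44 for miR-26a-5p, miR-26b-5p, miR-26a-3p and miR-26b-3p, with 0 calls. The miR-26a arm ratio difference stayed at 0.65, with p = 0.125 in an exact sign-flip test, the smallest that 4 numbers allow, so this says nothing about stability. The rats share only the number of the sample title, while the column names number the rats differently in each group, so the labels give no basis for pairing. Deviations of rats with the same title number correlated at -0.34, -0.15, -0.15 and -0.36.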
